A study of Mus musculus with 28 samples.

Results

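Genes of glycolysis, of pyruvate entry into mitochondria and of the hypoxia response were followed in mouse embryonic stem cells as they left the naive state. The members were 36 genes named by symbol, and all 36 were found among the 24116 genes counted. A mean of at least 1 CPM (counts scaled to a common library size, here by the TMM method of edgeR) within a library kit was required. That kept all 36 members in the polyA set and 35 in the ribosome-depleted set, where Pdk2, at 0.859 CPM, was left out. The RNA came from RGd2 cells, a female mouse embryonic stem cell line that carries a Rex1 reporter of short-lived GFP and blasticidin resistance. Lines labelled Zfp281 KO (knockout) were set against wild type (WT) lines with ribosome-depleted ScriptSeq libraries. Lines lacking Ehmt1, Zic2 or both by their labels (Ehmt1 KO, Zic2 KO and the double KO, labelled Ehmt1/Zic2 KO) were set against other WT lines with polyA TruSeq libraries. All cells were held on gelatin in N2B27 medium with 2i, that is the Gsk3 inhibitor CHIR99021 with the Mek inhibitor PD0325901 (the stage ESC), and some were collected 16 h or 32 h after 2i was taken away. The 16 h stage was sampled for Zfp281 KO and its WT lines only. Each group held 2 libraries from 2 differently named lines, which may be clones of 1 parent, so p-values measure only the spread between those lines.

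In glycolysis, glucose enters through transporters of the SLC2A family, is trapped by hexokinase, is committed by phosphofructokinase and is split into trioses that yield ATP and pyruvate. Lactate dehydrogenase turns pyruvate into lactate, which leaves through SLC16A carriers, while the pyruvate dehydrogenase complex, held back by PDK kinases, sends pyruvate to the tricarboxylic acid cycle. HIF1A is a transcription factor that prolyl hydroxylases of the EGLN family mark for decay when oxygen is present, and many glycolytic genes are known HIF targets. Naive mouse stem cells are known to use both respiration and glycolysis, and primed cells to lean on glycolysis.

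Promoters of 11 members are shown because the stage results turn on these genes. They are the 9 with a RefSeq entry that were called in 1 direction in at least 5 of 6 stage comparisons, and Hk2 and Ldha, which moved against their isoforms Hk1 and Ldhb. Each runs from 250 bases before to 50 bases after the first transcription start that RefSeq lists for GRCm38.p6. Capitals mark ACGTG, which is the A form of the hypoxia-response element core (A or G, then CGTG), or its reverse complement CACGT. A palindromic CACGTG counts as 2 matches. The form GCGTG was not searched. The Ldha, Ldhb, Pfkl, Pdha1 and Bnip3 windows hold it in small letters, and the Eno3 and Slc2a1 windows hold its reverse complement CACGC. A window without capitals may thus still hold a core.
Slc2a1 (chr4:119108495-119108794, plus strand): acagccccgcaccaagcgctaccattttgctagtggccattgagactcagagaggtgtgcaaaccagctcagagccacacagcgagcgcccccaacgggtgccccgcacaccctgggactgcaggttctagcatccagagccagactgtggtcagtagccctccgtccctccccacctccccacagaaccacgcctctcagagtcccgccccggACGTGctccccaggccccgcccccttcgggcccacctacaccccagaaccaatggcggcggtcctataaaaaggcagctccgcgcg
Slc16a3 (chr11:120948817-120949116, plus strand): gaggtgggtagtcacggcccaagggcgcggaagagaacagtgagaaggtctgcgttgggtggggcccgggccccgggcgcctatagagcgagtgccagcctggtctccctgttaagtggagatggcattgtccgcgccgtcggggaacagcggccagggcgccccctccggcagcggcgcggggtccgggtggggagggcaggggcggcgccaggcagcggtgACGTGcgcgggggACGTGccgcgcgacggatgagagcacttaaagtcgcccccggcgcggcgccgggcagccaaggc
Hk2 (chr6:82774405-82774704, minus strand): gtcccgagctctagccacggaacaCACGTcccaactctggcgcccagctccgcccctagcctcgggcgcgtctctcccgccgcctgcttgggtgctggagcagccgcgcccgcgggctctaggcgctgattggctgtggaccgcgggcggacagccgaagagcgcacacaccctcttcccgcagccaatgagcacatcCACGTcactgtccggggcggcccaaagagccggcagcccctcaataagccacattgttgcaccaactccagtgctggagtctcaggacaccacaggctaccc
Hk1 (chr10:62379859-62380158, minus strand): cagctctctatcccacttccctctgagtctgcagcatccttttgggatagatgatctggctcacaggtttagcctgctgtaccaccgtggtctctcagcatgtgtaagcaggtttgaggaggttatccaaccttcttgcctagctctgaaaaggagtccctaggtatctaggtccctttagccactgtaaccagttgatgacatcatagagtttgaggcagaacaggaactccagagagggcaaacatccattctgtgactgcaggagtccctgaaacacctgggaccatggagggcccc
Pfkl (chr10:78009758-78010057, minus strand): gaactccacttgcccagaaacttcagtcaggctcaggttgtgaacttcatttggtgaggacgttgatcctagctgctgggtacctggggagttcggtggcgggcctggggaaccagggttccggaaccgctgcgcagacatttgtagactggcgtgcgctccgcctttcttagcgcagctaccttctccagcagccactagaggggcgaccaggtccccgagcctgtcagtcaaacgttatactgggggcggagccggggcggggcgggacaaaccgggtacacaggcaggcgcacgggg
Eno3 (chr11:70656926-70657225, plus strand): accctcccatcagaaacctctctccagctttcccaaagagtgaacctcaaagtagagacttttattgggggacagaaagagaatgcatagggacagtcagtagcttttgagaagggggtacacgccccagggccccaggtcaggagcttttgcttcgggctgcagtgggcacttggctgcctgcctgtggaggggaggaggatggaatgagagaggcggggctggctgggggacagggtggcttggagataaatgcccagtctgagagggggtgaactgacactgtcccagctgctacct
Ldha (chr7:46845554-46845853, plus strand): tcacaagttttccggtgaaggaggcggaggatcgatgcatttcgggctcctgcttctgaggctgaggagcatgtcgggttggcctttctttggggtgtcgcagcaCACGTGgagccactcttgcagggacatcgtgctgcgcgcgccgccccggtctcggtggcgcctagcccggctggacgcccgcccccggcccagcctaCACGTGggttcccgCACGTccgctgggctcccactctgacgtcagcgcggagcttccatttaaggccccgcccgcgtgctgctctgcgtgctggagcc
Ldhb (chr6:142507908-142508207, minus strand): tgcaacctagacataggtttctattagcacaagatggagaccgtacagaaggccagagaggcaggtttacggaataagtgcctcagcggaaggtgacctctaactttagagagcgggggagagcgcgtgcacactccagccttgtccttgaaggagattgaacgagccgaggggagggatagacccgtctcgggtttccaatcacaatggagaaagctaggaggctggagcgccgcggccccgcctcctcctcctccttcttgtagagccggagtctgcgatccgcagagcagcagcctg
Pdha1 (chrX:160138381-160138680, minus strand): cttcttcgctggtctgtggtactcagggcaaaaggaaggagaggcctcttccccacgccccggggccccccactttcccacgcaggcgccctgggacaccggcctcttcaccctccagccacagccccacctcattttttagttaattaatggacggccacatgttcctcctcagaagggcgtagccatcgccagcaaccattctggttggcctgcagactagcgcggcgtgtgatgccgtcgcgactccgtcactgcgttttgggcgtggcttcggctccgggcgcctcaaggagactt
Egln3 (chr12:54203825-54204124, minus strand): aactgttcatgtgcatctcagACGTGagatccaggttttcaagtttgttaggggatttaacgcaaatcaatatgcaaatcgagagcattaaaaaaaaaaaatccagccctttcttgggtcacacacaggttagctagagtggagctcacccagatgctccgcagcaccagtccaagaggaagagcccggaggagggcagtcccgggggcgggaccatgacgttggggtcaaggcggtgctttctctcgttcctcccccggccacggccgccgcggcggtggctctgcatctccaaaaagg
Bnip3 (chr7:138909457-138909756, minus strand): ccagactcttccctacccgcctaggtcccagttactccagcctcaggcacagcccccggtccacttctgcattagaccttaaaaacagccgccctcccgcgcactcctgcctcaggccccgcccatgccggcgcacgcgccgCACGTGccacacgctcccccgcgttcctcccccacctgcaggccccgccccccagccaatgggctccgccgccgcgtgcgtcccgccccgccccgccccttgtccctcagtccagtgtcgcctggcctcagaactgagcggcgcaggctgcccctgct
Ldha held 5 matches, Slc16a3, Hk2 and Bnip3 held 2 each, Slc2a1 and Egln3 held 1 each, and Hk1, Pfkl, Eno3, Ldhb and Pdha1 held 0 in this window. Of the 35 members with a RefSeq entry, 19 (54.3%) held a match at the first listed start, against 19.7% of all 27025 genes listed. Among the members that rose in at least 4 of the 6 stage comparisons 6 of 11 held one (Pfkl, Eno3, Tpi1, Pkm and Pdk1 held 0), and among those with an entry that fell in at least 4, 0 of 6 did. Of the other members with an entry, Eno1, Aldoa, Pfkfb1, Pfkfb4 and Pdk4 held 0 and all the rest held at least 1, such as Slc16a1, Pfkm and Hif1a with 3 each. A match was thus not particular to the members that rose. A match is a run of letters and is no evidence of binding, and these counts cover ACGTG and its reverse complement only. Further starts, such as the second one listed for Ldha, were not counted.

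The libraries held 18086421 to 36365192 counts in the ribosome-depleted set and 19013882 to 28777604 in the polyA set. The WT line named Zfp281_WT stood apart at ESC and 32 h, with a count for 89.2% and 87.0% of olfactory receptor genes, against 11.2% to 24.7% in the other 6 ribosome-depleted libraries of those stages. Ehmt1 RNA was lower in Ehmt1 KO cells at ESC, at 24.9 and 17.6 CPM against 80.3 and 93.4 CPM in WT, and in double KO cells, at 25.4 and 25.8 CPM. Zfp281 RNA was not lower in lines labelled Zfp281 KO (278 and 280 CPM, against 238 and 302 CPM in WT, at ESC), and Zic2 RNA was not lower in lines labelled Zic2 KO (107 and 149 CPM, against 111 and 105 CPM). Zfp281 passed at no stage in Zfp281 KO cells (log2 fold changes of 0.05, 0.02 and 0.19 at ESC, 16 h and 32 h), nor Zic2 at either stage in Zic2 KO (0.25 and 0.41) or double KO cells (-0.05 and -0.02). Of the genes targeted in other lines, Zic2 fell by 0.52 ± 0.10 (SE) at 16 h and 0.72 ± 0.11 at 32 h and Ehmt1 by 0.35 ± 0.08 at 16 h in Zfp281 KO cells, and Zfp281 by 0.72 ± 0.14 at 32 h in double KO cells, over WT. The kind of mutation is not given in the sources used here, so RNA levels give no check of the Zfp281 and Zic2 labels, and every direction below is that of the lines as labelled. Pluripotency markers (the summed CPM of 9 genes) stood at 1690 to 4780 in all libraries, and their values by genotype stand beside the results below. Markers of 2-cell-like cells summed to 10.9 to 25.4 CPM in Zfp281 KO libraries and 0.826 to 7.48 CPM in their WT libraries. In the polyA set they summed to 9.12 to 31.0 CPM in double KO, 11.4 to 16.5 CPM in Ehmt1 KO, 6.56 to 11.9 CPM in Zic2 KO and 0.801 to 2.89 CPM in WT libraries. Primitive endoderm markers summed to 52.9 to 110.0 CPM in Zfp281 KO and 22.3 to 69.2 CPM in WT libraries, and fibroblast markers to at most 18.8 CPM in any library. No marker of these lists was at 0 in every library of a table, and the part of such cells in the results was not tested. In bulk RNA, fewer cells of a type and less RNA per cell cannot be told apart.

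Levels of different genes are compared per exonic length, as FPKM (CPM divided by kilobases of exon). The length was the union over all GENCODE transcripts of a gene, for example 3310 bases for Ldha and 1570 for Ldhb. Such a union can exceed the main transcript, so ranks and shares between genes depend on it. In polyA WT cells at ESC the most abundant members by mean FPKM were Aldoa, the main aldolase, at 576, Pkm, pyruvate kinase, at 529, Ldhb at 325 and Eno1, the main enolase, at 292. By CPM, however, Ldha stood above Ldhb in both of these libraries. The lowest were Gapdh at 0.747, Pfkfb4 at 1.13 and Pdk4 at 1.15 FPKM. Gapdh, the triose dehydrogenase and a usual reference gene, stood at 2.07 to 4.98 CPM in 15 polyA libraries and at 48.6 CPM in the other, double KO replicate 1 at ESC, and at 12.1 to 15.9 CPM in the ribosome-depleted set. Gapdh, Pgk1, Eno1, Ldha, Pkm, Aldoa, Tpi1 and Pgam1 have processed pseudogenes or near-identical copies. How reads of such copies, or of overlapping and antisense genes, were counted is not given in the sources used here, so the levels of these genes are uncertain, and those of Gapdh most of all.

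Which members changed over 32 h without 2i, and did the change hold across genotypes and kits? In WT cells the glucose transporter Slc2a1, the lactate exporter Slc16a3, hexokinase Hk2, phosphofructokinase Pfkl, the muscle enolase Eno3, pyruvate kinase Pkm, lactate dehydrogenase Ldha, the oxygen sensor Egln3 and the mitophagy receptor Bnip3 rose in both kits. The transporter Slc2a3, hexokinase Hk1, the isomerase Gpi1, phosphofructokinase Pfkp, lactate dehydrogenase Ldhb and Pdha1, the catalytic subunit of pyruvate dehydrogenase, fell in both kits. At 4 steps, then, isoforms moved in opposite directions (Slc2a1 and Slc2a3, Hk2 and Hk1, Pfkl and Pfkp, Ldha and Ldhb). In ribosome-depleted WT cells 13 of 35 members rose and 7 fell (57.1%), where 25.9% of all genes were called (edgeR quasi-likelihood test, Benjamini-Hochberg adjusted p under 0.05, as for every call below). In polyA WT cells 10 of 36 rose and 8 fell, where 35.7% of all genes were called. The median log2 fold change of the members was 0.23 and -0.03 in these sets, against 0.02 and 0.01 for all genes. Without the line Zfp281_WT all 20 members called in the ribosome-depleted set kept their direction, with Pkm at 0.11. That fit holds 1 WT library per stage, so its spread comes from the Zfp281 KO lines only. The calls of Slc2a1, Slc2a3, Slc16a3, Hk1, Hk2, Pfkl, Pfkfb2, Eno3, Ldha, Ldhb, Egln3 and Bnip3 in ribosome-depleted WT cells, and of Slc2a1, Slc2a3, Slc16a3, Hk1, Hk2, Pfkl, Pfkp, Eno2, Ldha, Ldhb, Pdha1, Egln3 and Bnip3 in polyA WT cells, held under every alternative run, and those of the other members were lost under at least 1. Of the named members Pfkp was not called without ribosome-depleted WT 32 h replicate 2 (-0.42, adjusted p = 0.065 by edgeR), and Slc2a1 was 0.59 without the line Zfp281_WT.

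Each KO genotype was followed over the same 32 h. Members rose and fell in counts of 13 and 9 of 35 in Zfp281 KO cells (background 24.7% of all genes), 8 and 8 of 36 in Ehmt1 KO (22.5%), 14 and 8 in Zic2 KO (30.9%) and 6 and 4 in double KO cells (14.4%). The replicate block (the line, named at both stages) gave 16 calls in double KO cells (background 27.5%), adding Aldoa, Eno1 and Pdk2 as higher and Hk2, Pfkfb2, Pfkp and Slc2a3 as lower and losing Gapdh. Single libraries moved these counts by over 1.5 times. The share of all genes called in the fits with 1 library left out is not given here, so their counts show only how firm the calls are. Calls numbered 4 without double KO 32 h replicate 1 in double KO cells, 7 without Zfp281 KO ESC replicate 1, 8 without Zfp281 KO ESC replicate 2, 12 without Zfp281 KO 32 h replicate 1 and 10 without Zfp281 KO 32 h replicate 2 in Zfp281 KO cells, 10 without Ehmt1 KO ESC replicate 2 and 10 without Ehmt1 KO 32 h replicate 2 in Ehmt1 KO cells, and 14 without Zic2 KO ESC replicate 1 and 14 without Zic2 KO 32 h replicate 2 in Zic2 KO cells. Calls held under every alternative run for Slc2a3, Slc16a3, Pfkfb2, Ldhb, Egln3 and Bnip3 in Zfp281 KO, Slc2a1, Slc16a3, Pfkm, Ldhb, Pdha1 and Egln3 in Ehmt1 KO and Slc2a1, Slc2a3, Hk1, Pfkl, Pkm, Ldhb, Pdha1, Pdk1 and Egln3 in Zic2 KO cells. In double KO cells none of the 10 did, and with only the groups compared 1 member was called there (background 2.13%). The 6 stage comparisons share no library. Over them Slc2a1, Slc16a3, Pfkl, Eno3 and Egln3 rose in all 6 and Pdha1 fell in all 6, where 2.54% of the 15467 genes tested in both kits rose and 3.34% fell in all 6 (9.12% rose and 9.04% fell in at least 4). Bnip3 rose in 5, and Hk2, Tpi1, Pkm, Ldha and Pdk1 in 4. Slc2a3, Hk1 and Ldhb fell in 5, and Gpi1, Pfkp and Eno2 in 4. Without the replicate block Pfkfb4, Pdk3 and Pdk4 passed in none of the 6 and Pdk2 in none of the 4 in which it was kept, and no member was called in both directions. With the replicate block each of these 4 passed in at least 1: Pdk4 in Zic2 KO (-0.77, adjusted p = 0.033 by edgeR), Pfkfb4 in Zfp281 KO (-0.71, adjusted p = 0.035 by edgeR) and polyA WT, Pdk3 in ribosome-depleted WT and Pdk2 in double KO cells (0.94, adjusted p = 0.019 by edgeR). With it Hk2, which rose in 4, fell in double KO cells (-0.34, adjusted p = 0.034 by edgeR). Hk1 in Ehmt1 KO (-0.90, adjusted p = 0.00016 by edgeR) and Slc2a3 in double KO cells (-0.52, adjusted p = 0.0097 by edgeR) then also passed as lower.

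**Figure D1:**
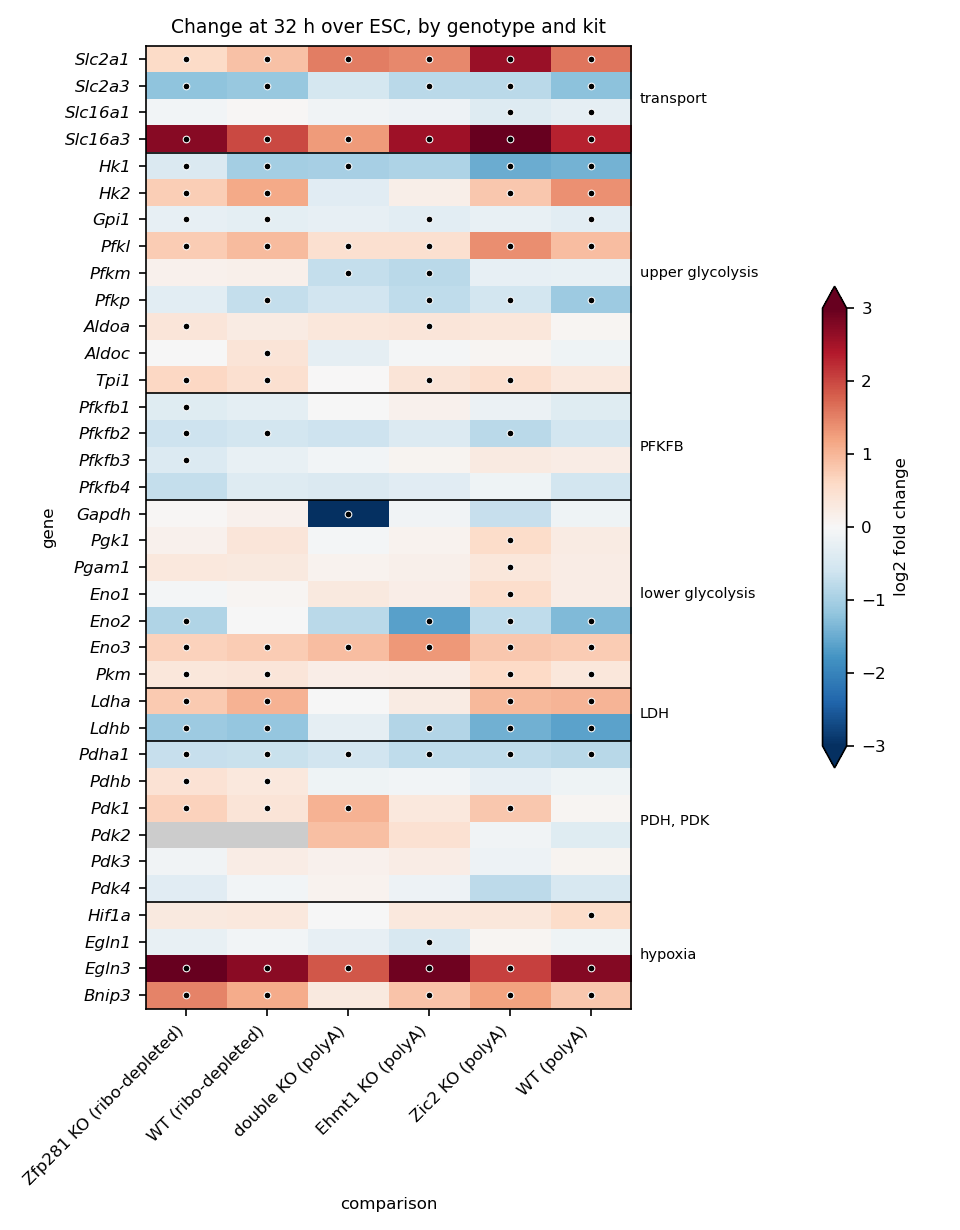
Log2 fold change at 32 h over ESC for the 36 members (rows, by pathway step) in 6 combinations of genotype and kit (columns). Red is higher at 32 h, blue is lower, colours are clipped at 3, black dots mark an adjusted p under 0.05 and grey cells were not kept. Slc2a1, Slc16a3 and Egln3 are red in every column, from 0.57 to 3.16, and Pdha1 is blue in every column, from -0.84 to -0.58.

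Among the transporters, Slc2a1 (GLUT1), the basal glucose transporter of many cells, and Slc2a3 (GLUT3), a transporter of high affinity, moved apart. Slc2a1 had 343 and 327 CPM at 32 h, against 213 and 150 CPM at ESC, in ribosome-depleted WT cells (log2 fold change 0.89 ± 0.14, SE) and 727 and 792 CPM, against 253 and 247 CPM, in polyA WT cells (1.60 ± 0.27). Slc2a3 had 727 and 545 CPM at 32 h, against 1490 and 1310 CPM at ESC, in ribosome-depleted WT cells (-1.14 ± 0.14) and 634 and 668 CPM, against 1550 and 1520 CPM, in polyA WT cells (-1.24 ± 0.18). Neither gene's stages overlapped in either kit. Zic2 KO cells held the highest Slc2a1 level of the polyA set, 1170 and 1200 CPM at 32 h against 177 and 213 CPM at ESC (2.60 ± 0.28). Slc16a3 (MCT4), which exports lactate, had 138 and 122 CPM at 32 h, against 37.3 and 27.8 CPM at ESC, in ribosome-depleted WT cells (1.99 ± 0.13) and 236 and 284 CPM, against 52.0 and 53.8 CPM, in polyA WT cells (2.30 ± 0.38). Slc16a1 (MCT1), which carries lactate both ways, had 286 and 246 CPM at 32 h and 287 and 233 CPM at ESC in ribosome-depleted WT cells (0.04 ± 0.11) and fell by 0.26 ± 0.09 in polyA WT cells. The exporter thus rose where its partner moved little.

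The hexokinases, which trap glucose in the cell, moved apart too. Hk2, the form known to be induced by HIF and insulin, had 152 and 146 CPM at 32 h, against 76.9 and 58.3 CPM at ESC, in ribosome-depleted WT cells (1.14 ± 0.13) and 148 and 146 CPM, against 62.7 and 52.0 CPM, in polyA WT cells (1.36 ± 0.18). Hk1, the form of most tissues, had 25.7 and 25.2 CPM at 32 h, against 49.9 and 54.1 CPM at ESC, in ribosome-depleted WT cells (-1.03 ± 0.09) and 29.0 and 28.0 CPM, against 83.0 and 68.8 CPM, in polyA WT cells (-1.41 ± 0.32). Again the stages did not overlap. Of the phosphofructokinase subunits, Pfkl (liver type) had 324 and 331 CPM at 32 h, against 181 and 156 CPM at ESC, in ribosome-depleted WT cells (0.96 ± 0.09), and 0.93 ± 0.14 in polyA WT cells on the log2 scale. Pfkp (platelet type) had 181 and 113 CPM at 32 h, against 275 and 211 CPM at ESC (-0.72 ± 0.21), and fell by 1.10 ± 0.19 in polyA WT cells. Pfkm (muscle type) did not pass in WT cells (0.15 ± 0.10 and -0.23 ± 0.16) and fell in Ehmt1 KO (-0.81 ± 0.16) and double KO cells (-0.72 ± 0.16). Gpi1, which makes fructose phosphate, fell by 0.29 ± 0.07 and 0.32 ± 0.10 in the WT sets.

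The abundant aldolase and triose steps moved less. Aldoa had 1710 and 1760 CPM at 32 h and 1830 and 1520 CPM at ESC in polyA WT cells (0.05 ± 0.12), and in ribosome-depleted WT cells 0.25 ± 0.10 missed the threshold without the replicate block and passed with it (adjusted p = 0.00092 by edgeR). Aldoc, the brain aldolase, rose in ribosome-depleted WT cells (0.39 ± 0.11) and not in polyA WT cells (-0.13 ± 0.26). Tpi1, which interconverts the trioses, rose by 0.48 ± 0.10 in ribosome-depleted WT cells, and its polyA value, 0.31 ± 0.12, passed with the replicate block only (adjusted p = 0.016 by edgeR). The Pfkfb genes encode enzymes that make and remove the fructose bisphosphate that activates phosphofructokinase. Pfkfb2 fell in ribosome-depleted WT cells (20.5 and 17.9 CPM at 32 h, against 25.7 and 30.7 CPM at ESC, -0.55 ± 0.12). In polyA WT cells Pfkfb2 (-0.54 ± 0.21), Pfkfb1 (-0.37 ± 0.15) and Pfkfb4 (-0.54 ± 0.22) passed with the replicate block only, with adjusted p of 0.012, 0.031 and 0.033 by edgeR. Pfkfb3, known to be induced by hypoxia in other cells, had 6.80 and 7.57 CPM at 32 h and 7.84 and 8.92 CPM at ESC in ribosome-depleted WT cells (-0.22 ± 0.12), and neither Pfkfb3 nor Pfkfb4 rose in any of the 6 stage comparisons.

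In lower glycolysis Eno3 had 13.4 and 15.4 CPM at 32 h, against 8.28 and 8.72 CPM at ESC, in ribosome-depleted WT cells (0.77 ± 0.12) and 30.4 and 21.8 CPM, against 17.1 and 13.7 CPM, in polyA WT cells (0.76 ± 0.23). The polyA call of Eno3 was lost without WT 32 h replicate 1 (0.50, adjusted p = 0.2 by edgeR). Pkm had 3270 and 3410 CPM at 32 h, against 2820 and 2330 CPM at ESC, in ribosome-depleted WT cells (0.37 ± 0.10). Eno2, the neuronal enolase, had 5.99 and 5.94 CPM at 32 h and 5.11 and 7.13 CPM at ESC in ribosome-depleted WT cells (-0.02 ± 0.19), whereas it fell in polyA WT cells, at 4.25 and 3.03 CPM against 10.1 and 8.11 CPM (-1.32 ± 0.27). The difference between kits was not tested. Eno1 did not pass in either WT set (0.06 ± 0.08 and 0.23 ± 0.13). Pgk1 and Pgam1, which act between Gapdh and enolase, missed the threshold in ribosome-depleted WT cells (0.36 ± 0.13 and 0.30 ± 0.11) and passed there with the replicate block (adjusted p = 5.9e-05 and 0.0004 by edgeR).

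Lactate dehydrogenase showed an exchange of subunits. Ldha, the subunit that favours lactate formation, had 870 and 807 CPM at 32 h, against 469 and 344 CPM at ESC, in ribosome-depleted WT cells (1.04 ± 0.13) and 1360 and 1150 CPM, against 700 and 533 CPM, in polyA WT cells (1.03 ± 0.18). Ldhb, the subunit that favours lactate use, had 86.6 and 109 CPM at 32 h, against 208 and 232 CPM at ESC, in ribosome-depleted WT cells (-1.16 ± 0.11) and 183 and 154 CPM, against 598 and 422 CPM, in polyA WT cells (-1.60 ± 0.17). The stages of both genes stood apart in both kits. In the promoters printed above Ldha holds 5 ACGTG matches, with each palindrome counted as 2, and Ldhb holds 0. Whether these matches bear on the exchange was not tested.

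At the entry of pyruvate into mitochondria Pdha1 had 409 and 313 CPM at 32 h, against 650 and 495 CPM at ESC, in ribosome-depleted WT cells (-0.67 ± 0.15) and 226 and 243 CPM, against 405 and 431 CPM, in polyA WT cells (-0.84 ± 0.09). Pdhb, the partner of Pdha1 in the enzyme, rose in ribosome-depleted WT cells (0.32 ± 0.10; not called without WT ESC replicate 2, 0.19, adjusted p = 0.15 by edgeR) and did not pass in polyA WT cells (-0.14 ± 0.09), so the subunits did not move together. Pdk1, a kinase that shuts the complex and a known HIF target, had 302 and 304 CPM at 32 h, against 233 and 234 CPM at ESC, in ribosome-depleted WT cells (0.38 ± 0.07). It had 286 and 269 CPM at 32 h and 267 and 265 CPM at ESC in polyA WT cells (0.06 ± 0.14), but rose in Zic2 KO (0.82 ± 0.14) and double KO cells (1.05 ± 0.14). Pdk3 passed in ribosome-depleted WT cells with the replicate block only (0.23 ± 0.12, adjusted p = 0.0092 by edgeR), and Pdk4 stayed low, at 3.10 and 3.82 CPM at 32 h and 3.14 and 4.24 CPM at ESC.

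Egln3 (PHD3), a prolyl hydroxylase that is itself a known HIF target, had the largest fold change of all members in both WT sets. It had 35.1 and 32.6 CPM at 32 h, against 5.17 and 5.28 CPM at ESC, in ribosome-depleted WT cells (2.70 ± 0.13) and 57.5 and 59.1 CPM, against 8.37 and 9.02 CPM, in polyA WT cells (2.75 ± 0.34). Its paralogue Egln1 (PHD2), the main oxygen sensor of most cells, had 24.1 and 20.2 CPM at 32 h and 24.8 and 22.0 CPM at ESC in ribosome-depleted WT cells and passed in neither WT set (-0.08 ± 0.11 and -0.12 ± 0.12). Bnip3, a HIF target in mitophagy, had 111 and 103 CPM at 32 h, against 55.9 and 43.3 CPM at ESC (1.11 ± 0.11), and rose by 0.80 ± 0.19 in polyA WT cells. Hif1a RNA rose in polyA WT cells (278 and 266 CPM at 32 h, against 157 and 212 CPM at ESC, 0.56 ± 0.14), a call lost without WT ESC replicate 1 (0.36, adjusted p = 0.078 by edgeR). Its ribosome-depleted value, 0.31 ± 0.10, had an adjusted p of 0.052 by edgeR and of 0.00031 with the replicate block.

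The share of 1 isoform in the summed FPKM of its family does not depend on the scaling of libraries and so can be set beside the 16 h libraries. The size of a share does depend on the exonic lengths used, which are the same for every library. In ribosome-depleted WT cells Hk2 made up 68.8% and 60.6% of hexokinase RNA at ESC, 88.7% and 87.4% at 16 h and 89.4% and 89.2% at 32 h. Ldha made up 51.7% and 41.4% of the lactate dehydrogenase pair at ESC, 52.5% and 47.7% at 16 h and 82.7% and 77.8% at 32 h. The Hk2 share at 16 h thus stood near that at 32 h, whereas the Ldha share at 16 h lay near that at ESC. Slc2a1 made up 22.8% and 19.1% of Slc2a1 with Slc2a3 at ESC, 47.7% and 42.8% at 16 h and 49.4% and 55.4% at 32 h. Egln3 made up 22.0% and 24.5% of Egln1 with Egln3 at ESC, 55.3% and 63.7% at 16 h and 66.3% and 68.6% at 32 h. Both of these stood above ESC by 16 h. Slc16a3 made up 9.78% and 9.04% of Slc16a1 with Slc16a3 at ESC, 24.9% and 23.2% at 16 h and 28.6% and 29.2% at 32 h. Pfkl made up 41.8% and 43.3% of the phosphofructokinase genes at ESC, 39.9% and 46.2% at 16 h and 60.8% and 65.4% at 32 h, so its share, like that of Ldha, stood apart from ESC at 32 h but not at 16 h. The 16 h libraries come from a table deposited on its own and normalised separately, so these are levels set side by side and no test was run between 16 h and the other stages. In polyA WT cells the Ldha share was 77.9% and 78.0% at 32 h, against 35.7% and 37.5% at ESC, and the Hk2 share 88.0% and 88.2% against 51.9% and 51.9%.

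**Figure D2:**
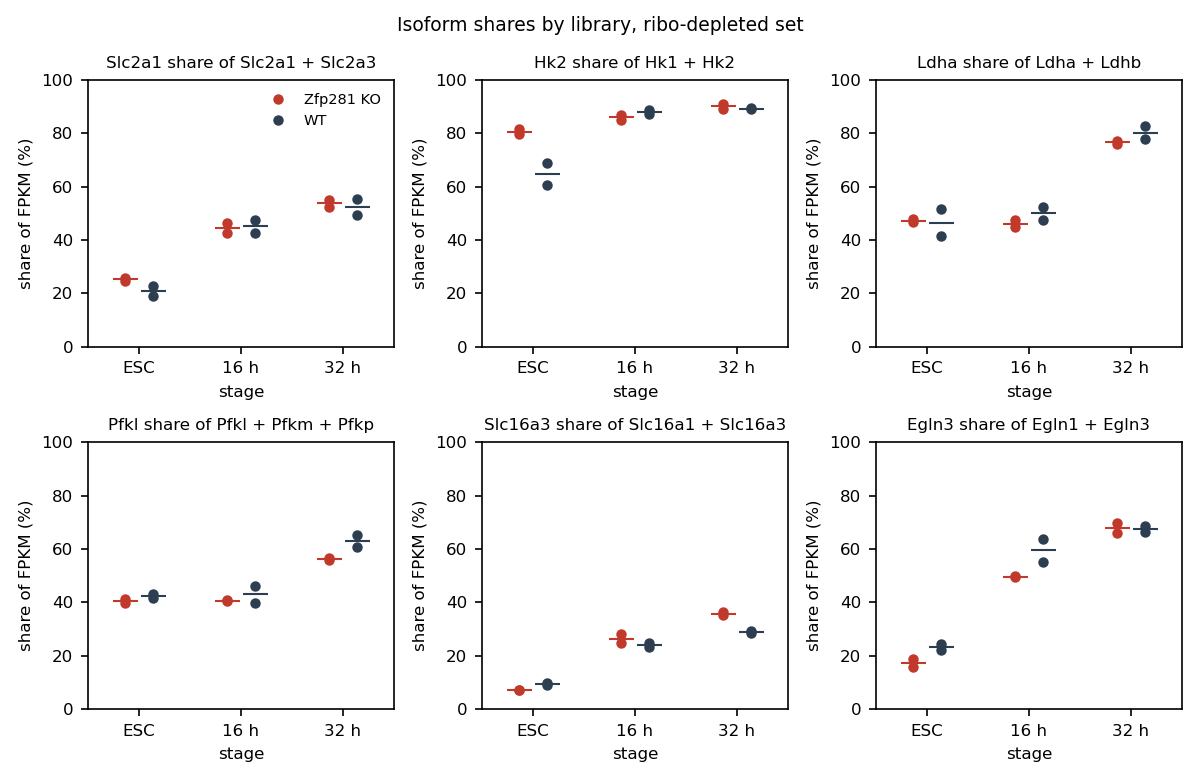
Share of 1 isoform in the summed FPKM of its family (y axis, percent) at ESC, 16 h and 32 h (x axis) in ribosome-depleted Zfp281 KO and WT libraries. Points are libraries and dashes are means of 2. In WT the Hk2, Slc2a1, Egln3 and Slc16a3 shares at 16 h stand above both ESC libraries, while the Pfkl and Ldha shares stand above them at 32 h.

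Zfp281 is a zinc finger transcription factor known for a role in the exit from naive pluripotency, and lines labelled Zfp281 KO were compared with WT at each stage. Both lactate dehydrogenase genes, Eno2, Eno3, Aldoc and Pfkm were lower in Zfp281 KO cells at all 3 stages. Hk1, Tpi1, Pkm and Pdk1 were lower at 2 of the stages, Egln3 at ESC, and Hk2 and Hif1a at 16 h. Higher were Slc2a1 at ESC and 16 h, Pfkp and Pdha1 at 16 h and 32 h, Slc2a3 and Pdk3 at 16 h, and Slc16a3 at 32 h. At ESC 1 of 35 members was higher and 10 were lower (31.4%), where 13.8% of all genes were called. At 16 h 5 were higher and 11 lower (45.7%, background 28.6%), and at 32 h 3 were higher and 8 lower (31.4%, background 28.5%). The share at 32 h thus stands near the share of all genes. Formative markers (the summed CPM of Fgf5, Pou3f1, Otx2 and Dnmt3b) stood at 680 and 628 in Zfp281 KO and 1460 and 1360 in WT libraries at 32 h. Pluripotency markers stood at 2740 and 2900 in Zfp281 KO and 2190 and 1690 in WT libraries at 32 h, where 5 of 9 were called higher and 1 lower (median 1.08), while at 16 h 4 passed as higher and 1 as lower. The part of either list in these results was not tested.

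The counts depend on single libraries. Each refit sets its own spread for all genes, and the share of all genes called in it is not given here. The counts that follow thus tell how firm the calls are, not how the members moved against other genes. At ESC 22 members were called (4 higher, 18 lower) without the line Zfp281_WT, and 18 (12 higher, 6 lower) with Zfp281_WT as the 1 WT library. With Zfp281 KO replicate 1 or replicate 2 left out at ESC, 2 were called in each case. At 32 h 20 members were called without the line Zfp281_WT, 6 without Zfp281 KO replicate 1 and 5 without Zfp281 KO replicate 2. At 16 h 7 were called without Zfp281 KO replicate 1 and 7 without Zfp281 KO replicate 2. Leaving out the line Zfp281_WT leaves 1 WT library per stage, so the spread then comes from the Zfp281 KO lines only. A call kept in that fit measures no variation between WT lines. The members called at ESC, 16 h and 32 h all kept their direction in it. Calls that held under every alternative run were those of Hk1 and Eno3 at ESC, Pfkm, Tpi1, Eno3, Pkm, Ldha, Ldhb and Pdk1 at 16 h and Aldoc, Eno2, Eno3, Ldha and Ldhb at 32 h.

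Among the transporters Slc2a1 had 268 and 267 CPM in Zfp281 KO and 213 and 150 CPM in WT cells at ESC (0.56 ± 0.14), and 370 and 352 CPM and 316 and 285 CPM at 16 h (0.26 ± 0.09). Without the line Zfp281_WT the ESC value was 0.27, and with Zfp281_WT as the 1 WT library 0.96. Slc2a3 had 881 and 982 CPM in Zfp281 KO and 715 and 788 CPM in WT cells at 16 h (0.31 ± 0.10), so both glucose transporters were called higher at that stage. Both 16 h calls were lost under at least 1 alternative run. Without the line Zfp281_WT the 16 h values were 0.19 for Slc2a1 and 0.38 for Slc2a3. Slc16a3 had 194 and 187 CPM in Zfp281 KO and 138 and 122 CPM in WT cells at 32 h (0.55 ± 0.12). Of the hypoxia genes Egln3 had 2.99 and 3.65 CPM in Zfp281 KO and 5.17 and 5.28 CPM in WT cells at ESC (-0.65 ± 0.15), and at 32 h 26.5 and 32.1 CPM and 35.1 and 32.6 CPM (-0.21 ± 0.11). The ESC call was lost with Zfp281_WT as the 1 WT library (-0.55, adjusted p = 0.062 by edgeR). Hif1a had 374 and 374 CPM in Zfp281 KO and 431 and 462 CPM in WT cells at 16 h (-0.26 ± 0.08), and Hk2 95.8 and 100 CPM and 130 and 111 CPM (-0.30 ± 0.10).

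Ldha had 271 and 253 CPM in Zfp281 KO and 469 and 344 CPM in WT cells at ESC (-0.64 ± 0.13), 178 and 151 CPM and 336 and 330 CPM at 16 h (-1.02 ± 0.10), and 444 and 458 CPM and 870 and 807 CPM at 32 h (-0.89 ± 0.13). The ESC value was -0.28 with Zfp281_WT as the 1 WT library and -0.91 without that line. Ldhb had 140 and 137 CPM in Zfp281 KO and 208 and 232 CPM in WT cells at ESC (-0.66 ± 0.11), with -0.80 ± 0.10 at 16 h and -0.59 ± 0.11 at 32 h. No Zfp281 KO library overlapped WT for either gene at any stage. The Ldha share of the pair was 47.9% and 46.7% in Zfp281 KO, against 51.7% and 41.4% in WT, at ESC and 76.1% and 77.3% against 82.7% and 77.8% at 32 h. Lactate dehydrogenase RNA was thus lower for both subunits, with shares that lay close to those of WT.

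The enolases differed by isoform. Eno3 had 7.26 and 7.14 CPM in Zfp281 KO and 13.4 and 15.4 CPM in WT cells at 32 h (-1.0 ± 0.12), with -0.93 ± 0.12 at ESC and -1.25 ± 0.15 at 16 h. Eno2 had 1.94 and 1.96 CPM in Zfp281 KO and 5.99 and 5.94 CPM in WT cells at 32 h (-1.61 ± 0.20), with -0.74 ± 0.19 at ESC and -0.86 ± 0.23 at 16 h. The abundant Eno1 did not pass at any stage, at 985 and 1070 CPM in Zfp281 KO and 1000 and 1040 CPM in WT cells at 32 h. Aldolase had the same pattern: Aldoc fell by 0.53 ± 0.12, 0.64 ± 0.20 and 0.94 ± 0.12 at ESC, 16 h and 32 h, and Aldoa did not pass (0.00 ± 0.10, -0.05 ± 0.09 and 0.12 ± 0.10). Pfkm fell by 0.44 ± 0.10, 0.66 ± 0.10 and 0.47 ± 0.10, while Pfkp had 258 and 276 CPM in Zfp281 KO and 181 and 113 CPM in WT cells at 32 h (0.86 ± 0.21). Without the line Zfp281_WT the Pfkp value was 0.53, and the Aldoc call at 16 h was lost (-0.37, adjusted p = 0.1 by edgeR). With Zfp281_WT as the 1 WT library at ESC the Pfkm (-0.20, adjusted p = 0.14 by edgeR) and Aldoc calls (-0.38, adjusted p = 0.062 by edgeR) were lost. At 16 h Tpi1 had 101 and 111 CPM in Zfp281 KO and 157 and 191 CPM in WT cells (-0.71 ± 0.11), Pkm 1700 and 1670 CPM and 2450 and 2680 CPM (-0.61 ± 0.09), and Pdk1 213 and 215 CPM and 300 and 407 CPM (-0.72 ± 0.14). These 3 calls at 16 h held under every alternative run there.

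Hk1 was the 1 member whose stage response differed between Zfp281 KO and WT cells (2.86% of members, where 4.15% of all genes were called). It had 20.2 and 19.2 CPM at 32 h and 27.7 and 25.2 CPM at ESC in Zfp281 KO cells, against 25.7 and 25.2 CPM at 32 h and 49.9 and 54.1 CPM at ESC in WT cells. It stood lower at ESC in Zfp281 KO cells and fell by less, with a difference of responses of 0.60 ± 0.13 (adjusted p = 0.031 by edgeR). With the replicate block 8 members passed (background 13.7%), adding Slc16a3 (0.72), Pfkp (0.43), Bnip3 (0.38), Pdk1 (0.30), Pdk3 (-0.33), Hk2 (-0.42) and Eno2 (-0.89). The Hk1 call was lost without WT 32 h replicate 2 and without each of the Zfp281 KO libraries (adjusted p from 0.067 to 0.41 by edgeR). Without the line Zfp281_WT 6 passed. Members that passed numbered 7 without WT ESC replicate 1, 4 without WT ESC replicate 2, 2 without WT 32 h replicate 1, 0 without WT 32 h replicate 2, 0 without Zfp281 KO ESC replicate 1, 0 without Zfp281 KO ESC replicate 2, 0 without Zfp281 KO 32 h replicate 1 and 0 without Zfp281 KO 32 h replicate 2. Since the share of all genes called in these fits with libraries left out is not given here, their counts are no result about the members. Pdha1, an X-linked gene, had 506 and 497 CPM in Zfp281 KO and 409 and 313 CPM in WT cells at 32 h (0.47 ± 0.15), and the value was 0.26 without the line Zfp281_WT. The X chromosome took 4.40% to 4.80% of counts in Zfp281 KO libraries, 3.94% to 3.98% in the WT line named WT and 3.33% to 3.49% in the line Zfp281_WT, and its part in the Pdha1 and Pdk3 results was not tested.

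Ehmt1 encodes GLP, a methyltransferase known to place a repressive mark on histone H3, and it was compared with WT alone and with Zic2 in the double KO. Phosphofructokinase Pfkp, the kinase Pdk4 and Pfkfb2 were higher than in WT in double KO and Ehmt1 KO cells at both stages. Pfkm, the enolases Eno1, Eno2 and Eno3 and the kinase Pdk1 were lower in both genotypes at both stages. Double KO cells had 9 of 36 members higher and 8 lower at ESC (47.2%, background 39.4%), and 5 higher and 11 lower at 32 h (44.4%, background 39.1%). Ehmt1 KO cells had 4 higher and 10 lower at ESC (38.9%, background 26.9%), and 3 higher and 9 lower at 32 h (33.3%, background 26.6%). The double KO shares stand near the share of all genes. Of 9 pluripotency markers 6 were called higher in double KO (median 1.37) and 6 in Ehmt1 KO cells (median 0.99) at 32 h, and their part in these results was not tested. The 4 comparisons share the WT libraries of their stage, so their values are given side by side. For the fits with 1 library left out, the share of all genes called is not given here, so their counts are no result about the members. Calls in double KO cells at ESC numbered 11 without WT ESC replicate 1, and at 32 h 9 without WT 32 h replicate 1 and 9 without WT 32 h replicate 2. In Ehmt1 KO cells at ESC they numbered 8 without WT ESC replicate 1. In double KO cells the calls of Hk2, Pfkp, Pfkfb1, Eno1, Eno2, Eno3, Ldhb, Pdk1, Pdk4 and Egln1 at ESC and of Pfkm, Pfkp, Eno1, Eno2, Eno3, Pdk4, Hif1a and Egln3 at 32 h held under every alternative run. In Ehmt1 KO cells those of Pfkp, Eno2, Eno3, Ldhb, Pdk1, Pdk4 and Egln3 at ESC and of Pfkm, Pfkp, Eno2, Eno3, Pdk1, Pdk4 and Egln3 at 32 h did.

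**Figure D3:**
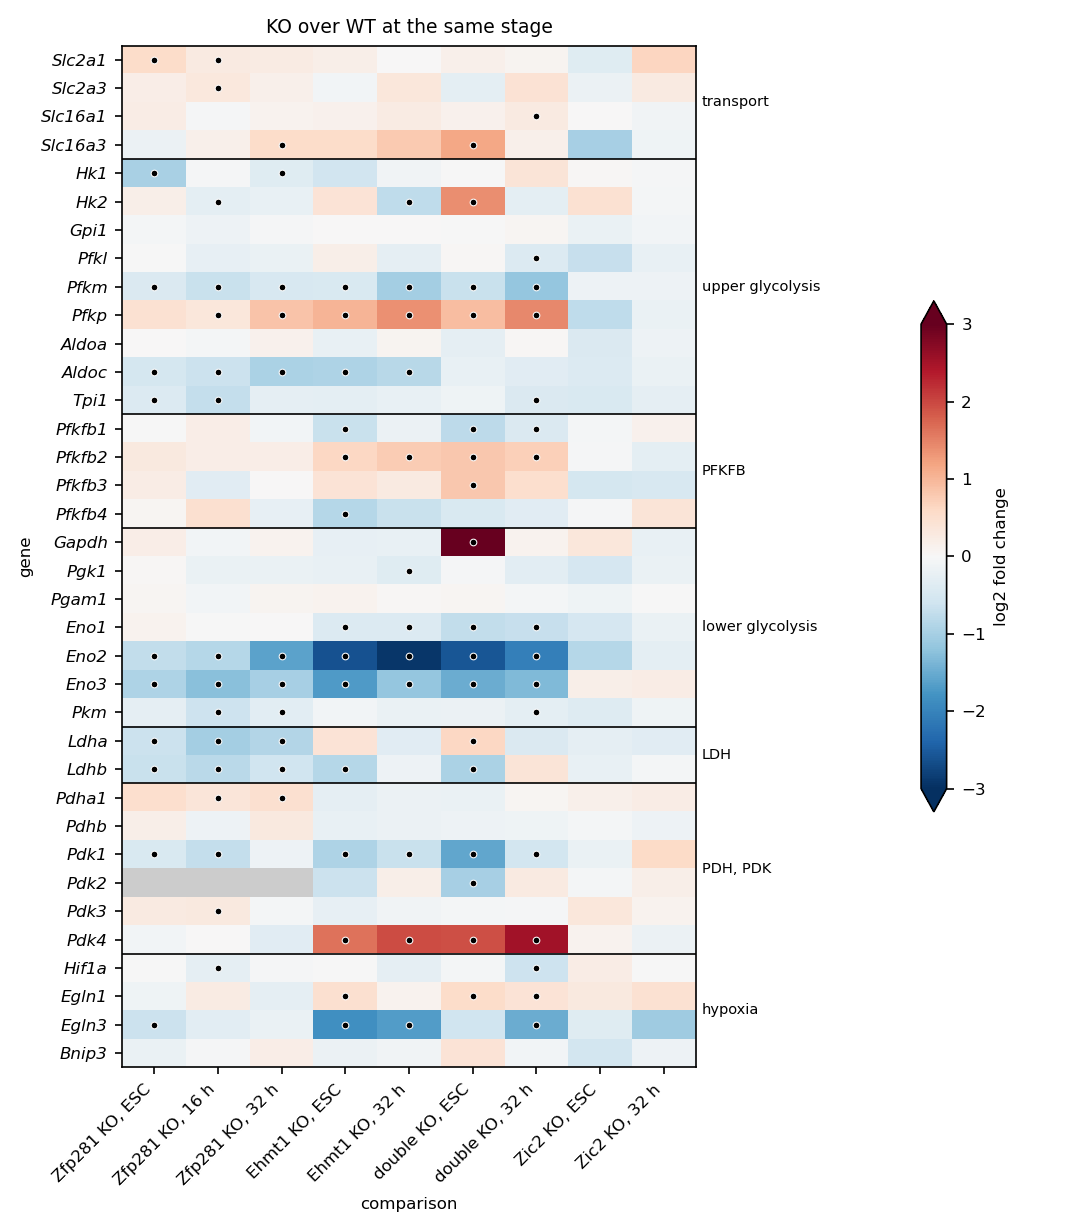
Log2 fold change of KO over WT cells of the same stage for the 36 members (rows) in 9 comparisons (columns). Red is higher in KO, blue is lower, colours are clipped at 3, black dots mark an adjusted p under 0.05 and grey cells were not kept. Eno2 and Eno3 are blue in all Zfp281 KO, Ehmt1 KO and double KO columns, from -2.92 to -0.74, Pdk4 is red in the Ehmt1 KO and double KO columns, from 1.62 to 2.52, and the Zic2 KO columns hold no dot.

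Pdk4, a pyruvate dehydrogenase kinase known from fasting, was higher throughout. At ESC it had 14.4 and 16.3 CPM in double KO, 13 and 11.9 CPM in Ehmt1 KO and 3.38 and 4.71 CPM in WT cells, log2 fold changes of 1.93 ± 0.30 and 1.62 ± 0.30. At 32 h it had 11.2 and 21.8 CPM in double KO, 12.2 and 10.1 CPM in Ehmt1 KO and 3.25 and 2.49 CPM in WT cells (2.52 ± 0.31 and 1.96 ± 0.30). No KO library overlapped WT. Pdk1 went the other way, at 101 and 81.0 CPM in double KO and 142 and 139 CPM in Ehmt1 KO cells, against 267 and 265 CPM in WT, at ESC (-1.55 ± 0.14 and -0.93 ± 0.14). In FPKM, Pdk4 made up 11.4% and 15.6% of the 4 Pdk genes in double KO, 9.92% and 9.33% in Ehmt1 KO and 1.80% and 2.5% in WT cells at ESC. Pdk1 and Pdk3 thus remained the larger shares, at 36.2% and 35.0% for Pdk1 and 51.2% and 46.8% for Pdk3 in double KO cells.

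Eno2, the neuronal enolase, had the largest fall of all members in each of the 4 comparisons. At ESC it had 1.56 and 1.51 CPM in double KO and 1.10 and 1.90 CPM in Ehmt1 KO cells, against 10.1 and 8.11 CPM in WT (-2.57 ± 0.29 and -2.61 ± 0.29), and at 32 h 0.944 and 0.803 CPM and 0.558 and 0.399 CPM, against 4.25 and 3.03 CPM (-2.05 ± 0.30 and -2.92 ± 0.33). Eno3 had 5.32 and 5.69 CPM in double KO and 5.83 and 3.53 CPM in Ehmt1 KO cells, against 17.1 and 13.7 CPM in WT, at ESC (-1.48 ± 0.24 and -1.71 ± 0.24). Here the abundant enolase fell as well: Eno1 had 826 and 1050 CPM in double KO and 1080 and 1290 CPM in Ehmt1 KO cells, against 1740 and 1400 CPM in WT, at ESC (-0.74 ± 0.13 and -0.41 ± 0.13). Pfkp had 228 and 328 CPM in double KO and 290 and 298 CPM in Ehmt1 KO cells, against 154 and 137 CPM in WT, at ESC (0.93 ± 0.19 and 1.01 ± 0.19). Pfkm had 32.4 and 43.9 CPM in double KO and 42.6 and 39.9 CPM in Ehmt1 KO cells, against 90.1 and 78.8 CPM in WT, at 32 h (-1.15 ± 0.16 and -1.03 ± 0.16). As a share of phosphofructokinase FPKM, Pfkp made up 24.9% and 29.0% in double KO and 26.2% and 25.9% in Ehmt1 KO cells, against 13.9% and 14.7% in WT, at ESC. Pfkfb2 rose by 0.80 ± 0.20 in double KO and 0.62 ± 0.20 in Ehmt1 KO cells at ESC, where Pfkfb1 fell by 0.78 ± 0.15 and 0.66 ± 0.15.

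Egln3 at 32 h had 14.4 and 27.2 CPM in double KO and 20.3 and 16.2 CPM in Ehmt1 KO cells, against 57.5 and 59.1 CPM in WT (-1.49 ± 0.31 and -1.68 ± 0.32). Its rise over ESC still passed in both genotypes (1.86 ± 0.34 and 2.91 ± 0.37), though the double KO call was lost with only the groups compared (1.86, adjusted p = 0.12 by edgeR). Egln1 was higher in double KO cells at ESC (0.54 ± 0.12) and 32 h (0.42 ± 0.12) and in Ehmt1 KO cells at ESC (0.47 ± 0.12). Hif1a was lower in double KO cells at 32 h, at 174 and 177 CPM against 278 and 266 CPM in WT (-0.63 ± 0.14). In double KO cells at ESC Slc16a3 (1.17 ± 0.37) and Pfkfb3 (0.80 ± 0.23) were higher as well, and Pdk2 was lower (-0.99 ± 0.35). At 32 h they had higher Slc16a1 (0.26 ± 0.09) and lower Pfkl (-0.40 ± 0.14), Tpi1 (-0.44 ± 0.12) and Pkm (-0.30 ± 0.10). Aldoc was lower in Ehmt1 KO cells at ESC (-0.92 ± 0.27) and 32 h (-0.84 ± 0.27). Ehmt1 KO cells also had lower Pfkfb4 at ESC (-0.86 ± 0.23) and lower Pgk1 at 32 h (-0.37 ± 0.12).

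Slc2a1, Slc2a3, Hk1, Gpi1, Aldoa, Pgam1, Pdha1, Pdhb, Pdk3 and Bnip3 passed in none of the 4 comparisons. The Gapdh call in double KO cells at ESC (3.04 ± 0.87) rests on replicate 1, at 48.6 CPM beside 2.34 CPM in replicate 2, and the value was -0.40 (adjusted p = 0.5 by edgeR) without that library.

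The stage response itself was then compared between genotypes. In double KO cells Hk2 and Ldha were already higher than WT at ESC and did not rise over 32 h, and Ldhb was already lower and its stage change did not pass. At ESC the values against WT were 1.40 ± 0.18, 0.62 ± 0.18 and -0.96 ± 0.16. Hk2 had 121 and 119 CPM at 32 h and 164 and 140 CPM at ESC in double KO, 75.4 and 97.2 CPM and 61.9 and 92.1 CPM in Ehmt1 KO, and 148 and 146 CPM and 62.7 and 52.0 CPM in WT cells. The difference from the WT response was -1.70 ± 0.26 in double KO (adjusted p = 0.0031 by edgeR) and -1.19 ± 0.26 in Ehmt1 KO cells (adjusted p = 0.038 by edgeR). Ldha had 1010 and 861 CPM at 32 h and 906 and 991 CPM at ESC in double KO cells, against 1360 and 1150 CPM and 700 and 533 CPM in WT, a difference of responses of -1.05 ± 0.25. Ldhb had 243 and 195 CPM at 32 h and 286 and 239 CPM at ESC in double KO cells, against 183 and 154 CPM and 598 and 422 CPM in WT, a difference of 1.33 ± 0.23. Double KO cells thus showed less of the exchange seen in WT, with an Ldha share of 66.3% and 67.7% at 32 h and 60.0% and 66.3% at ESC, against 77.9% and 78.0% and 35.7% and 37.5% in WT. In Ehmt1 KO cells the share was 73.3% and 77.6% at 32 h and 58% and 58.6% at ESC, so it too stood above WT at ESC. Pdk1 had 218 and 160 CPM at 32 h and 101 and 81.0 CPM at ESC in double KO cells, against 286 and 269 CPM and 267 and 265 CPM in WT, a difference of 0.99 ± 0.19.

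These were 4 of 36 members in the double KO (11.1%, where 5.29% of all genes were called) and 1 of 36 in Ehmt1 KO cells (2.78%, where 1.86% were called). With the replicate block 10 members passed in the double KO (background 16.7%), adding Pdk2 (1.29), Slc2a3 (0.72), Pfkp (0.53), Pfkm (-0.51), Hif1a (-0.58) and Egln3 (-0.87). In Ehmt1 KO cells 4 passed with it (background 8.69%), adding Ldhb (0.69), Pfkm (-0.59) and Ldha (-0.78). The Hk2 and Ldhb calls in the double KO held under every alternative run, while the Hk2 call in Ehmt1 KO cells was lost without either WT library of either stage, Ehmt1 KO ESC replicate 2 or Ehmt1 KO 32 h replicate 1 (adjusted p from 0.067 to 0.14 by edgeR). The Ldha call was lost without WT ESC replicate 2, WT 32 h replicate 1 or 2, double KO ESC replicate 2 or double KO 32 h replicate 2 (adjusted p from 0.055 to 0.13 by edgeR), and the Pdk1 call without WT 32 h replicate 2 (0.95, adjusted p = 0.061 by edgeR). Formative markers summed to 757 and 958 CPM in double KO, 1410 and 1420 CPM in Ehmt1 KO and 1440 and 1310 CPM in WT libraries at 32 h. Pluripotency markers summed to 2650 and 2730 CPM in double KO, 2420 and 2590 CPM in Ehmt1 KO and 2100 and 2160 CPM in WT libraries at 32 h. By edgeR 5 of these 9 genes had a higher stage response than in WT in double KO (median 1.71) and 5 in Ehmt1 KO cells (median 1.35). The part of either list in these results was not tested.

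**Figure D4:**
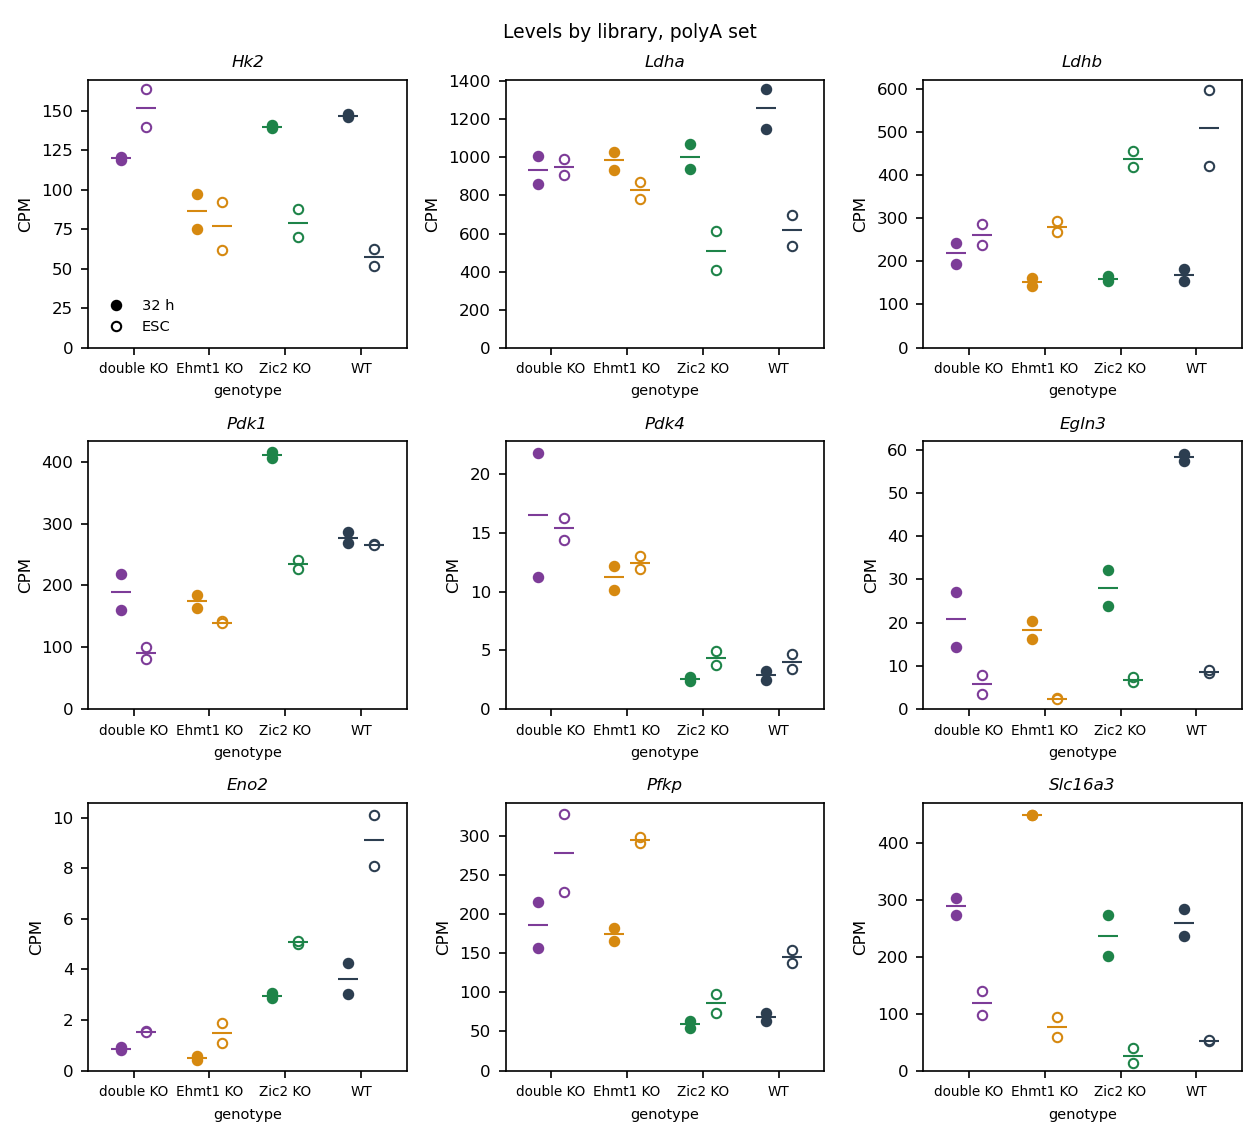
CPM of 9 members (y axis) in the polyA set by genotype (x axis). Filled points are 32 h libraries, open points are ESC libraries and dashes are means of 2. Hk2 in double KO stands at 121 and 119 CPM at 32 h, below its ESC libraries, against 148 and 146 CPM in WT, above its ESC libraries, and Pdk4 stands above WT in every double KO and Ehmt1 KO library.

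Zic2, a zinc finger transcription factor, was assessed in Zic2 KO against WT cells and in double KO against Ehmt1 KO cells. In Zic2 KO cells 0 members passed by edgeR at ESC (background 0.274%) and 0 at 32 h (background 0.0766%). At an unadjusted p under 0.05 there were 14 members at ESC, 11 of them lower, and 5 at 32 h (9.86% and 9.52% of all genes), and DESeq2 called 6 and 2 (1.79% and 1.12% of all genes). With only the groups compared edgeR called 0 members at ESC and 9 of 36 at 32 h, 5 higher and 4 lower, where 10.6% of all genes were called. Egln3 had 23.8 and 32.1 CPM in Zic2 KO and 57.5 and 59.1 CPM in WT cells at 32 h (-1.06 ± 0.31), and Slc2a1 1170 and 1200 CPM and 727 and 792 CPM (0.64 ± 0.26). These genes' libraries did not overlap between genotypes, which held for 21 of the 36 members in this comparison, and their adjusted p by edgeR was 0.26 and 0.44. The stage responses of Zic2 KO and WT cells differed in 0 members by edgeR (background 0%), with 3 at an unadjusted p under 0.05 (4.63% of all genes) and 0 by DESeq2 (0.153% of all genes). With the replicate block (background 0.319%) Slc2a1 (1.01, adjusted p = 0.032 by edgeR) and Pdk1 (0.76, adjusted p = 0.034 by edgeR) passed. Double KO cells differed from Ehmt1 KO cells in 0 members by edgeR at ESC (background 0.0957%) and 0 at 32 h (background 0.223%), with 7 and 6 at an unadjusted p under 0.05 (12.3% and 13% of all genes) and 4 and 0 by DESeq2 (1.21% and 1.65% of all genes). A p that misses the threshold with 2 libraries per group does not show that these genotypes are alike.

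Genes of neighbouring pathways, from textbook lists, were read in the same fits, where 35.7% of all genes were called over the WT stage change in the polyA and 25.9% in the ribosome-depleted set. Of 18 tricarboxylic acid cycle genes 1 rose and 10 fell at 32 h in polyA WT cells (median -0.29), and 3 rose and 5 fell in ribosome-depleted WT cells (median -0.08). Idh2, a mitochondrial isocitrate dehydrogenase, fell by 1.73 ± 0.13 in polyA WT cells, and Mpc1, a subunit of the mitochondrial pyruvate carrier, by 1.15 ± 0.15. Of 20 further HIF target genes 3 rose and 3 fell in polyA (median 0.07) and 7 rose and 2 fell of 20 in ribosome-depleted WT cells (median 0.31). Ddit4, an inhibitor of mTORC1, rose by 1.34 ± 0.14 in ribosome-depleted WT cells, whereas Ndrg1 fell by 2.19 ± 0.26 and the histone demethylase gene Kdm3a by 1.25 ± 0.12. Tigar, a phosphatase that lowers the activator of phosphofructokinase, fell by 1.63 ± 0.12 in polyA and 1.50 ± 0.08 in ribosome-depleted WT cells. Lin28a and Lin28b, RNA-binding proteins known to favour glycolysis, rose by 1.46 ± 0.13 and 1.76 ± 0.18 in polyA WT cells, and the naive factor Esrrb fell by 4.22 ± 0.15.

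In Zfp281 KO cells at 32 h 5 of 18 tricarboxylic acid cycle genes were higher and 1 lower (median 0.18, against -0.07 for all genes, of which 28.5% were called), and 3 of 9 pyruvate entry genes were higher (median 0.07). Mpc1 was higher by 1.60 ± 0.13 there, the gluconeogenic phosphatase Fbp1 by 2.61 ± 0.17 and Epas1, which encodes HIF2A, by 1.86 ± 0.13, whereas Lin28a fell by 2.74 ± 0.10 and Lin28b by 2.11 ± 0.09. In double KO cells at ESC 1 of 18 tricarboxylic acid cycle genes was higher and 8 lower, and 1 of 8 pentose phosphate genes was higher and 6 lower (medians -0.26 and -0.34, against 0 for all genes, of which 39.4% were called). At 32 h 10 of 20 further HIF targets were higher and 3 lower in double KO cells (median 0.32, against 0.02 for all genes, of which 39.1% were called). Among those higher were Ankrd37 at 1.79 ± 0.30 and the collagen hydroxylase gene P4ha1 at 0.93 ± 0.13. Fbp2, the muscle fructose bisphosphatase, was higher by 4.10 ± 0.38 in double KO and 3.86 ± 0.38 in Ehmt1 KO cells at 32 h. The insulin-responsive glucose transporter Slc2a4 fell by 3.80 ± 0.39 in double KO and 3.17 ± 0.37 in Ehmt1 KO cells at ESC. The mitochondrial gluconeogenic gene Pck2 fell by 2.97 ± 0.35 and 2.35 ± 0.34 at 32 h.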

How the data were processed

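RNA was measured by sequencing, with ribosome-depleted ScriptSeq libraries for Zfp281 KO and its WT lines and polyA TruSeq libraries for the other genotypes, per the labels' protocols. The authors deposited raw counts per gene, and the submitters' processing notes name GRCm38 (mm10) and edgeR. How reads were aligned and counted, and whether by strand, is not known from these sources. The depth was 18086421 to 36365192 counts per library.

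Counts were tested with edgeR 4.0.16 (R 4.3.3; TMM scaling, filterByExpr with a minimum count of 10 and a minimum total of 15, robust quasi-likelihood fit, Benjamini-Hochberg adjusted p under 0.05 over all genes tested). There were 3 separate fits: the 8 ribosome-depleted ESC and 32 h libraries, the 4 at 16 h, and the 16 polyA libraries. They gave 21 comparisons, tested on simulated data first. Values after ± are SE for log2 fold changes. Kits were never compared by a test. The members and lists were chosen with earlier results of these data known. All members were eligible to be named, with values in each library for isoform pairs and for the members with the smallest adjusted p, and up to 4 genes per neighbouring list by smallest adjusted p. Libraries of a line at ESC and 32 h share the line's name, and the correlation of their deviations from the group means was 0.81 in ribosome-depleted WT, 0.15 in Zfp281 KO, 0.07 in polyA WT, 0.58 in Ehmt1 KO, 0.34 in Zic2 KO and 0.59 in double KO cells. Alternatives were DESeq2 1.42.0 and its size factors, no low-count filter, the line as a replicate block, only the groups compared, no libraries of the line Zfp281_WT, and each library left out. Promoters came from RefSeq (GRCm38.p6).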

Additional observations from a re-analysis of the deposited data

Results flagged for a closer look

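These members changed with stage by different amounts in KO and WT cells, by the test of the difference itself. Hk1 differed by 0.60 ± 0.13 (SE) in Zfp281 KO cells (adjusted p = 0.031 by edgeR), where both genotypes fell. Hk2 differed by -1.70 ± 0.26 in double KO (adjusted p = 0.0031 by edgeR) and by -1.19 ± 0.26 in Ehmt1 KO cells (adjusted p = 0.038 by edgeR), and both comparisons share the WT libraries. Ldha differed by -1.05 ± 0.25 (adjusted p = 0.031 by edgeR) and Ldhb by 1.33 ± 0.23 (adjusted p = 0.0065 by edgeR) in double KO cells, so both lactate dehydrogenase subunits changed less than in WT. Pdk1 differed by 0.99 ± 0.19 in double KO cells (adjusted p = 0.012 by edgeR), where it stood low at ESC. The Hk2 and Ldhb differences in double KO cells held under every alternative run.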

How the results depend on the processing

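The counts below are members called. Where no share of all genes is given with a count here or above, that count is no result about the members against other genes. Scaling by DESeq2's size factors kept every count within 1.5 times. It moved the share of higher calls over all genes by under 10 percentage points, and the median of all genes by under 0.1 on the log2 scale. Without the low-count filter the count was 7 for Zfp281 KO at ESC (edgeR count 11) and 0 for the Zfp281 response (1), where 8.59% and 2.4% of all genes were called. It was 1 for Zic2 KO at ESC (0) and 1 for double KO over Ehmt1 KO at ESC (0). With DESeq2 it was 3 for the Zfp281 response (4.36% of all genes), 6 and 2 for Zic2 KO at ESC and 32 h (1.79% and 1.12%), and 4 for double KO over Ehmt1 KO at ESC (1.21%). With only the libraries of the groups compared it was 17 for Zfp281 KO at 32 h (11), where the share of all genes called went from 28.5% to 41.7%. It was 12 for the ribosome-depleted WT stage change (20), where that share went from 25.9% to 12.5%. For the stage change in double KO it was 1 (10) and for Zic2 KO at 32 h 9 (0), with 2.13% and 10.6% of all genes called. It was also 9 for the stage change in Ehmt1 KO (16), 8 for Ehmt1 KO at ESC (14), and 0 and 2 for the Ehmt1 (1) and Zic2 (0) responses. Without the line Zfp281_WT it was 22 and 20 for Zfp281 KO at ESC and 32 h and 6 for the Zfp281 response.

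With the line as a replicate block it was 8, 4, 2 and 10 for the Zfp281, Ehmt1, Zic2 and double KO responses, and 16 for the double KO stage change. No other count moved by over 1.5 times under the block, though single calls did. Leaving out 1 library gave 2 to 18, 7 to 19 and 5 to 11 for Zfp281 KO at ESC, 16 h and 32 h, 7 to 12 for its stage change and 0 to 7 for its response. It gave 10 to 15, 14 to 17 and 4 to 14 for the stage change in Ehmt1 KO, Zic2 KO and double KO, 8 to 13 for Ehmt1 KO, 0 to 1 for Zic2 KO and 11 to 17 for double KO at ESC, 9 to 13 for double KO at 32 h, 0 to 2 for double KO over Ehmt1 KO at ESC, and 0 to 1 and 2 to 5 for the Ehmt1 and double KO responses. A lone remaining library is there assumed to vary like the other groups. Only Gapdh changed sign among called members: without double KO ESC replicate 1 it was -0.40 in double KO over WT at ESC and 0.35 in the double KO stage change (without replicate 2, 3.96 and -4.00). The cause of these shifts was not tested. With 2 libraries per group, small differences could not be called at this depth.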
